A study of Mus musculus with 6 samples.

Results

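Stem and progenitor cells of mouse bone marrow from miR-21 knockout mice and littermate controls are described here for 10 genes of Notch signalling. These genes are Hey1, Hes1, Notch1, Notch2, Jag1, Rbpj, Dtx1, Dtx3, Nrarp and Maml1. They were chosen by symbol, with the differences between knockout and control already known, from 30632 genes that had a probe set of their own on the array. Each had 1 probe set annotated to it alone, and all 10 had a mean log2 value above 1.92 in both groups, the level under which genes were left out as dim. The cells were LSK cells (lineage-negative, c-Kit-positive, Sca-1-positive), a flow-sorted fraction of bone marrow rich in blood stem cells. In 3 samples both floxed miR-21 alleles were joined with the Mx1-Cre transgene (miR-21flox/flox:Mx1-Cre+, the knockout), and 3 samples came from littermates without Cre (miR-21flox/flox:Mx1-Cre-, the control). Both groups were given 7 injections of 250 µg of pIpC from an age of 4 to 6 weeks, and were used 4 weeks later. The Mx1 promoter that drives Cre answers to interferon and is active beyond stem cells, and the controls carry no Cre, so effects of Cre and of miR-21 loss cannot be told apart. The titles call the samples biological replicates, but no label says how many mice stand behind each, so a p-value here reflects no more than the spread between these arrays.

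Notch receptors are cut when a ligand of the Delta or Jagged kind on a neighbouring cell binds them. The freed intracellular part enters the nucleus, joins the DNA-binding protein RBPJ and a Mastermind coactivator, and switches on genes such as those of the Hes and Hey repressors. In blood formation the pathway is best known for committing progenitors to the T lineage, and Hey1 is also a response gene of bone morphogenetic protein (BMP) signalling.

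The RNA targeted in the knockout and the DNA letters read by the pathway are shown because the comparison and the transcription step turn on them. The level of miR-21 left in the cells is not given here. The mature strand of miR-21, from RefSeq (GRCm38.p6, chr11:86584120-86584141, minus strand), has its seed, bases 2 to 8, in capitals.
miR-21a-5p: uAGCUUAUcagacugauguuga
Promoter windows of 300 bases, from 250 before to 50 after a start site, were in the RefSeq table of GRCm38.p6 for 7 of the 10 genes, and Hey1, Hes1 and Dtx3 had none there. The core of the RBPJ motif, TGGGAA, was searched on both strands and was found in 25.6% of all 32851 windows. Among the 7 genes it was found for Rbpj alone, whose upstream window (chr5:53590096-53590395, plus strand) held 2 copies, in capitals, starting 149 and 65 bases before the start site.
Rbpj promoter: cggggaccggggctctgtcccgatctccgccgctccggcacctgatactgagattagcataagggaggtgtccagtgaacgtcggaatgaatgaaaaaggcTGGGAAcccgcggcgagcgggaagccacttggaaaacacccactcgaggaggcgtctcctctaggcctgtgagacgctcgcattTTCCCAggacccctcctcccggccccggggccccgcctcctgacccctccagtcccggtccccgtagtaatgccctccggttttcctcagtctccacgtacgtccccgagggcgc
The longer form GTGGGAA, which contains that core, was found in 6.38% of all windows and in 0 of the windows of these genes. The window of Hes5, a textbook Notch target outside the 10 (chr4:154960673-154960972, plus strand), held 2 copies of the longer form, as 0.256% of all windows did with 2 or more. Its TGGGAA cores, in capitals, start 226 and 82 bases before the start site.
Hes5 promoter: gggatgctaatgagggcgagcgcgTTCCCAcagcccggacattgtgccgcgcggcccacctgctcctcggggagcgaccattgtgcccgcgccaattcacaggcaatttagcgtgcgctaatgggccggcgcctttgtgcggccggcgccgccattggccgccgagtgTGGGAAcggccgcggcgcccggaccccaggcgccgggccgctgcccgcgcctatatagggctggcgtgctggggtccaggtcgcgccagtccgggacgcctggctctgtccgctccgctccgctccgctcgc
The E-box CACGTG, a palindrome that Hes and Hey proteins can bind, was found in 7.15% of all windows and, among the 7 genes, for Nrarp (chr2:25180508-25180807, plus strand), 108 bases before the start site.
Nrarp promoter: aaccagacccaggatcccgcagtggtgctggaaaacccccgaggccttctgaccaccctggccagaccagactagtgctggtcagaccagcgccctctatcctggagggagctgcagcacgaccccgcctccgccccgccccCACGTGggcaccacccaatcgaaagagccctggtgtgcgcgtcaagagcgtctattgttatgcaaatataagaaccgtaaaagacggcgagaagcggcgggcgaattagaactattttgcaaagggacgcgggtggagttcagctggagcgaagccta
These matches describe letters in a window and are no evidence of binding.

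Across the whole table, 5911 of 19025 genes tested passed an adjusted p of 0.05 in limma, which is 31.1% of them, with 19.1% higher and 12.0% lower in the knockout. Array medians lay between 1.90 and 1.95, and arrays of 1 group correlated at 0.995 to 0.997 over all probe sets. With each array centred on its median over the genes tested, the split moved to 2751 higher and 2719 lower, and the median difference of all genes from 0.07 to 0.03.

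Markers of the sorted cells and of other blood lineages moved with the groups as well. Of 9 stem and progenitor markers tested, 6 fell and 2 rose in limma, with summed linear levels of 1538 to 1637 in the knockout arrays and 1761 to 1839 in the controls. Kit, the receptor the sort selects for, was present in every array, at 8.12 to 8.19 in the knockout and 8.55 to 8.68 in control, and so fell by 0.46 (adjusted p = 7.85e-04). Hlf fell by 0.88, and Mecom, Meis1, Flt3 and Procr fell by 0.46 to 0.48, beside differences of -0.38 to -0.43 for Notch1, Notch2 and Hes1. Slamf1 rose by 0.54 and Cd48 by 0.42, the latter not past the threshold without knockout replicate 3 (0.34). Cd34, at 8.87 to 9.09 over the 6 arrays, had a difference of -0.16 (adjusted p = 0.0501) and passed under several settings (-0.24 after a second quantile normalization), while Ly6a, which encodes Sca-1, had no probe set of its own. Of 12 neutrophil and myeloid progenitor markers, 11 rose and Itgam fell, and their summed linear level was 3095 to 3206 in the knockout arrays and 1207 to 1304 in the controls. Of 5 megakaryocyte markers, 3 rose (Itga2b by 0.56, Pf4 by 0.38 and Vwf by 0.31), with sums of 190 to 193 against 143 to 148. Both erythroid markers tested rose, Klf1 by 0.43 and Epor by 0.26, and Epor lost its call without knockout replicate 2 or control replicate 1. The sums of that list, which include the dim Alas2, were 27.1 to 31.0 in the knockout arrays and 23.0 to 25.2 in the controls. The B cell list had 1 of 3 higher (Cd79b, 0.26, lost at 0.21 without knockout replicate 3). The stromal list had 1 of 5 higher (Pdgfrb, 0.25), a call lost on leaving out any 1 array but knockout replicate 3 and control replicate 2 (0.19 to 0.27) and under a second quantile normalization (0.20) or centring on the genes tested (0.21). The part of these markers' cells in the differences below was not tested. Fewer cells of a type and less RNA per cell cannot be told apart in these bulk samples.

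Hey1 showed much the largest difference of the 10 genes, and the receptors Notch1 and Notch2, the repressor Hes1, the ligand Jag1 and the coactivator Maml1 were lower by smaller amounts. The genes were chosen with this contrast known, so their differences are a description without a test. In all, 6 of the 10 passed the adjusted threshold in the fit of all genes, all 6 lower in the knockout, beside 12.0% of all genes tested on that side. The 10 differences ran from -2.39 to 0.15 with a median of -0.24, and 9 were below 0, against a median of 0.07 and 34.8% below 0 over all genes tested. In 8 of the 10 the groups were free of overlap, beside 47.9% of all genes, and in 7 of the 10 all knockout arrays lay below all control arrays, beside 17.0% of all genes.

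Hey1 encodes a basic helix-loop-helix repressor that Notch switches on. Its log2 values were 3.46, 3.28 and 3.33 in knockout replicates 1 to 3 and 5.94, 5.68 and 5.62 in control replicates 1 to 3. The lowest control array lay more than 2 log2 units above the highest knockout array. The means were 3.35 ± 0.09 in the knockout and 5.75 ± 0.17 in control (SD, n = 3 each), a difference of -2.39 ± 0.09 (SE) or 5.25-fold lower. Among the 19025 genes tested this was the fourth lowest difference, after the interleukin-1 decoy receptor gene Il1r2 and a pair of immunoglobulin kappa variable segments.

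Hes1, the other classical Notch-driven repressor among the 10, moved in the same direction by a fraction of that size. It stood at 2.98, 3.05 and 3.03 in the knockout and at 3.44, 3.41 and 3.47 in control. Arrays within a group differed by less than 0.1, and the groups were apart by more than 0.3. The difference was -0.42 ± 0.06 (SE), 1.34-fold lower, and 4.79% of all genes had a lower one. Hes1 lay nearer the dim level than Notch1 or Notch2.

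**Figure D1:**
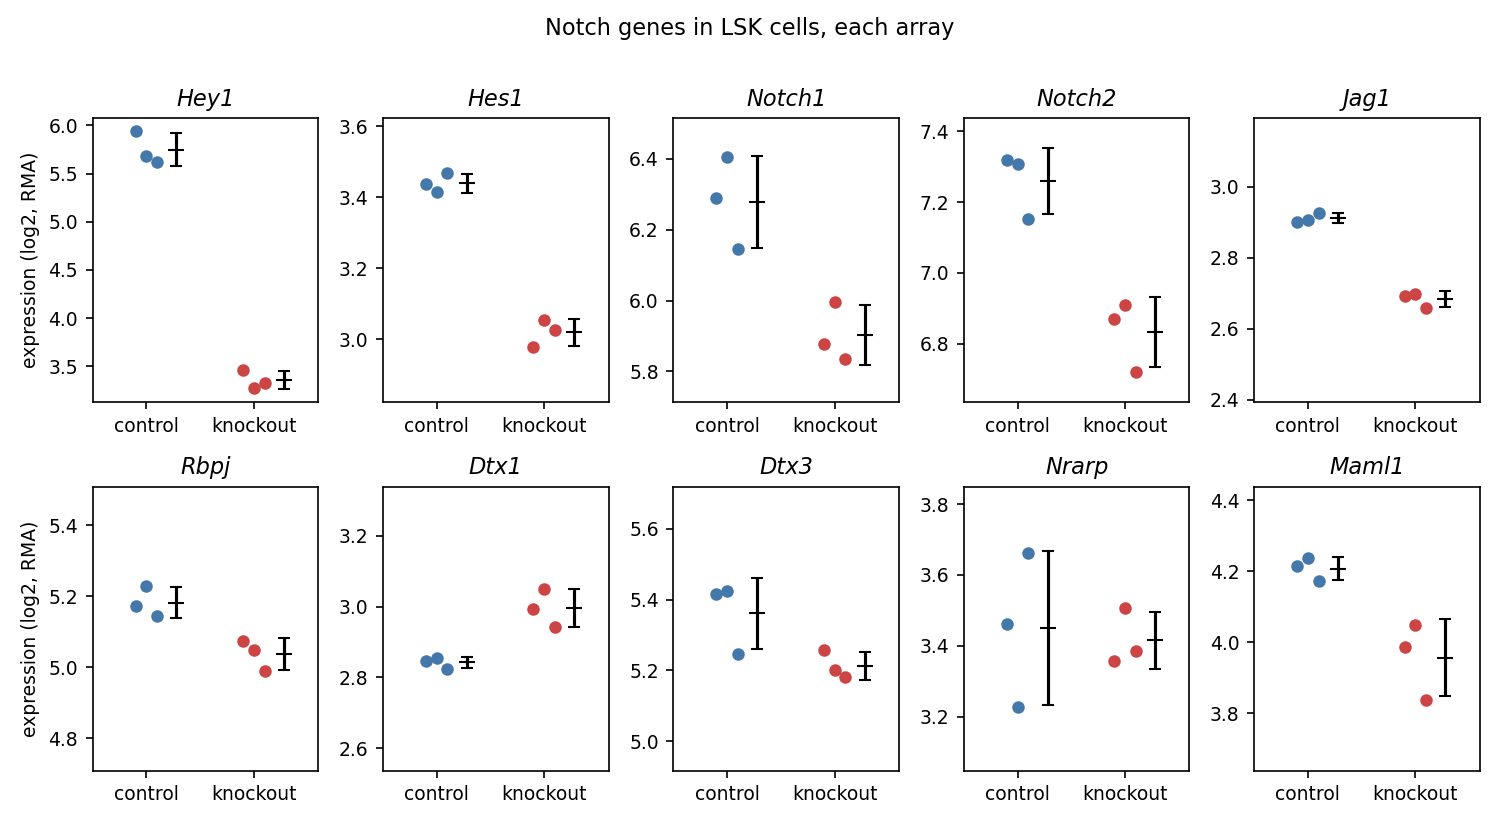
Log2 expression of the 10 Notch genes in each array, control in blue and knockout in red, with the group mean and SD (n = 3) as bars. The vertical axes differ between genes. Hey1 stands near 5.75 in control and 3.35 in the knockout, and the groups overlap for Dtx3 and Nrarp.

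Notch1 and Notch2 encode the receptors best studied in blood cells, Notch1 for T cell commitment and Notch2 for marginal zone B cells. Notch1 had values of 5.88, 6.00 and 5.84 in the knockout and 6.29, 6.40 and 6.14 in control, a difference of -0.38 ± 0.08 (SE). Notch2 had values of 6.87, 6.91 and 6.72 in the knockout and 7.32, 7.31 and 7.15 in control, a difference of -0.43 ± 0.07 (SE). For both receptors every knockout array lay below every control array, and replicate 3 was the lowest array of its group. The folds were 1.30 for Notch1 and 1.34 for Notch2, close to that of Hes1 and far from that of Hey1.

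Jag1 encodes a membrane-bound ligand of the receptors. It was at 2.69, 2.70 and 2.66 in the knockout and at 2.90, 2.91 and 2.93 in control. The spread within each group was under 0.05, and the difference was -0.23 ± 0.05 (SE), 1.17-fold lower. Every Jag1 value lay nearer the dim level of 1.92 than any value of Hes1. A difference this small at so low a level is to be read with care.

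The DNA-binding partner and the coactivator of the nuclear complex differed less than the receptors. Rbpj, through which all 4 receptors act, had values of 5.07, 5.05 and 4.99 in the knockout and 5.17, 5.23 and 5.14 in control. Its groups did not overlap, but the difference of -0.14 ± 0.06 (SE) was not past the threshold, and was -0.18 and past it only with arrays centred on the median of the genes tested. Maml1, a Mastermind coactivator, was at 3.99, 4.05 and 3.84 in the knockout and at 4.21, 4.24 and 4.17 in control, a difference of -0.25 ± 0.07 (SE). Knockout replicate 3 was the lowest array for Maml1. The call was lost without that array (-0.19), without control replicate 1 (-0.25) and without control replicate 2 (-0.24).

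The remaining 3 genes are modulators and feedback targets, and none passed the threshold. Dtx1 encodes a Deltex ubiquitin ligase that binds Notch and is itself a Notch target in lymphoid cells. It was the single gene of the 10 with higher values in the knockout, 2.99, 3.05 and 2.94 against 2.85, 2.86 and 2.83 in control. The groups did not overlap, and the difference was 0.15 ± 0.06 (SE), which was 0.17 and past the threshold after a second quantile normalization. Dtx3, another Deltex relative, was at 5.26, 5.20 and 5.18 in the knockout and 5.42, 5.42 and 5.25 in control, with control replicate 3 inside the knockout range. Its difference was -0.15 ± 0.07 (SE), or -0.21 and past the threshold without that array. Nrarp, a Notch target that destabilises the active receptor complex, varied most among the controls, at 3.46, 3.23 and 3.66, and these spanned its knockout values of 3.36, 3.51 and 3.38. Its difference of -0.04 ± 0.10 (SE) turned to 0.07 without control replicate 3.

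**Figure D2:**
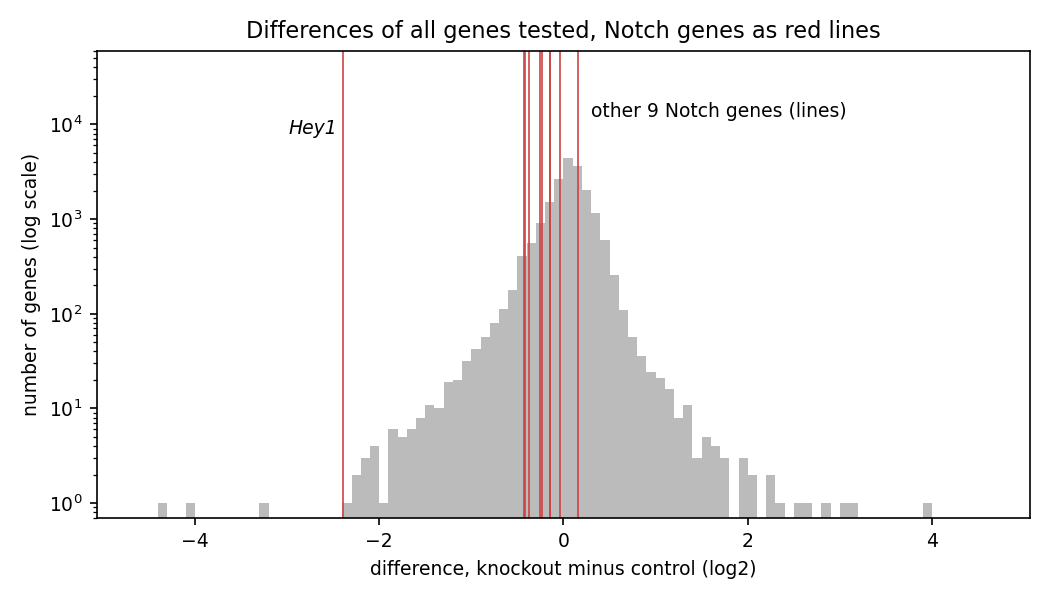
Number of genes (log scale) by log2 difference, knockout minus control, for the 19025 genes tested, with the 10 Notch genes as red lines. Hey1 lies at -2.39 in the sparse lower tail, and the other 9 lie nearer the centre, between -0.43 and 0.15. The lowest of these 9, Notch2, has 4.66% of genes below it.

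The rest of the pathway was read from lists of 73 further genes by role, of which 68 had a probe set of their own and 65 were above the dim level. Counted by direction, 18 of the 65 fell and 6 rose, with 41 not past the threshold, or 36.9% called beside 31.1% of all genes. Their median difference was -0.03, and that of all genes tested 0.07. The adjusted p-values that follow are from limma with Benjamini-Hochberg adjustment over all 19025 genes.

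Among the ligands, Jag2 carried the largest fall of the pathway after Hey1. It was at 5.38, 5.34 and 5.30 in the knockout and at 6.68, 6.59 and 6.38 in control, a difference of -1.21 ± 0.08 (SE, adjusted p = 1.48e-05). The lowest control array was about 1 log2 unit above the highest knockout array. The other 5 ligand genes tested (Dll1, Dll3, Dll4, Dlk1 and Dlk2) did not pass, with differences of -0.02 to 0.14, and Dner was dim. Dll1, Dll3 and Dll4 lay low, at 2.54 to 3.08 over the 6 arrays. The receptors Notch3 (0.07 ± 0.07) and Notch4 (0.12 ± 0.06, SE) did not pass either. Whether they differ from Notch1 and Notch2 in response was not tested.

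Of 9 genes for receptor cleavage, 2 fell and 0 rose in limma. Furin, the protease that cuts the receptor on its way to the surface, was at 5.33, 5.44 and 5.22 in the knockout and at 5.92, 6.11 and 5.82 in control (-0.62 ± 0.09 SE, adjusted p = 0.00112). Aph1c, a gamma-secretase subunit gene, fell by 0.58 (adjusted p = 0.00140), but it has a near-identical copy in Aph1b (-0.18, adjusted p = 0.0661), and their probes may share signal. The gamma-secretase gene Psenen at 0.20 (adjusted p = 0.0514) and the surface protease Adam10 at -0.22 (adjusted p = 0.0555) lay just outside the threshold, and each passed under some alternatives. Psen2, Ncstn, Aph1a and Adam17 did not pass, at 0.09 to 0.19.

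Among 5 genes of receptor glycosylation, the fringe gene Mfng fell by 0.30 (adjusted p = 0.00982), while Lfng, Rfng, Pofut1 and Poglut1 did not pass. Mib1, the ubiquitin ligase that drives ligand uptake, fell by 0.32 (adjusted p = 0.00982), and the other 3 genes of that step, Mib2, Neurl1a and Neurl1b, did not pass.

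Genes of receptor turnover went both ways, with 2 of 9 higher and 2 lower. Dtx4, a Deltex ligase like Dtx1 and Dtx3, showed the largest rise of the pathway, from 4.73, 4.74 and 4.72 in control to 5.62, 5.81 and 5.52 in the knockout (0.92 ± 0.08 SE, adjusted p = 5.19e-05). Dtx2 rose by 0.21 (adjusted p = 0.0235), a call lost without any 1 array other than knockout replicate 3 (0.18 to 0.23) and with arrays centred on the median of the genes tested (0.18), and Dtx3l was at 0.01. Nedd4, a ubiquitin ligase, fell by 0.54 (adjusted p = 1.49e-04). Fbxw7, which marks the intracellular receptor for breakdown, fell by 0.26 (adjusted p = 0.0177), a call lost without knockout replicate 1 (-0.25), knockout replicate 2 (-0.22) or control replicate 1 (-0.23). Numb and Numbl, antagonists of the receptor, were both at 0.00 ± 0.06 (SE).

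Of 7 coactivators of the nuclear complex, 3 fell, 1 rose and 3 did not pass. Both relatives of Maml1 fell, Maml2 by 0.43 (adjusted p = 0.00542) and Maml3 by 0.31 (adjusted p = 0.00462). The acetyltransferase gene Crebbp fell further, from 8.11 ± 0.10 in control to 7.52 ± 0.02 in the knockout (SD, n = 3 each, difference -0.60 ± 0.07 SE, adjusted p = 2.88e-04), and its relative Ep300 was at -0.14 (adjusted p = 0.0981). The 1 rise, that of Kat2a (0.21, adjusted p = 0.0294), was lost without any 1 array other than control replicate 1 (0.17 to 0.23), after a second quantile normalization (0.18) and with arrays centred on the median of the genes tested (0.18).

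Corepressors, which hold Notch targets off when the receptor is silent or serve the Hes proteins, had 6 of 11 lower and 0 higher in limma, with all 11 differences below 0 (median -0.22). All 4 Groucho-type genes tested fell. Tle1 fell by 0.43 (adjusted p = 6.40e-04), Tle3 by 0.48 (adjusted p = 0.00121) and Tle4 by 0.36 (adjusted p = 0.00249). Tle2 was at -0.22 (adjusted p = 0.0355), a call that ended when knockout replicate 1, knockout replicate 3, control replicate 1 or control replicate 2 was left out (-0.21 to -0.19) and after a second quantile normalization (-0.18). Kdm5a, a histone demethylase that works with RBPJ, fell by 0.58 (adjusted p = 5.86e-04) and L3mbtl3 by 0.34, whereas Hdac1, Hdac2, Spen, Ctbp1 and Cir1 did not pass.

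Of 6 other Hes and Hey genes tested, 0 fell, 2 rose and 4 did not pass in limma, with a median of 0.11, beside 12.0% of all genes lower and 19.1% higher. A list of 6 is too short to read against those shares, and Hes2, Hes3 and Heyl lay near the dim level, at 1.96 to 2.65. Hes6, which counteracts Hes1, rose by 0.29 (adjusted p = 0.00886), and Hes7 rose by 0.27 (adjusted p = 0.0179, 0.25 and not past the threshold without control replicate 1). Hes5, whose promoter window is printed above, was at 4.14, 4.22 and 4.04 in the knockout and 4.17, 4.03 and 4.12 in control, so the groups overlapped (0.03 ± 0.07 SE). Heyl was at 0.04, and Hey2 was dim in all 6 arrays at 0.91 to 1.17.

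Genes that Notch drives in the T lineage split as well, with 1 of 6 higher and 2 lower. Myc, a direct Notch1 target in T cell leukaemia that answers to many other signals, rose from 7.26, 7.24 and 7.12 in control to 7.95, 8.06 and 8.05 in the knockout (0.81 ± 0.06 SE, adjusted p = 3.95e-05). Igf1r fell by 0.35 (adjusted p = 0.0106) and Lef1 by 0.31 (adjusted p = 0.0140). Ptcra (0.13), Cd3e (0.09) and Bcl11b (0.02) did not pass, Il2ra was dim, and Tcf7 and Gata3 had no probe set of their own.

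**Figure D3:**
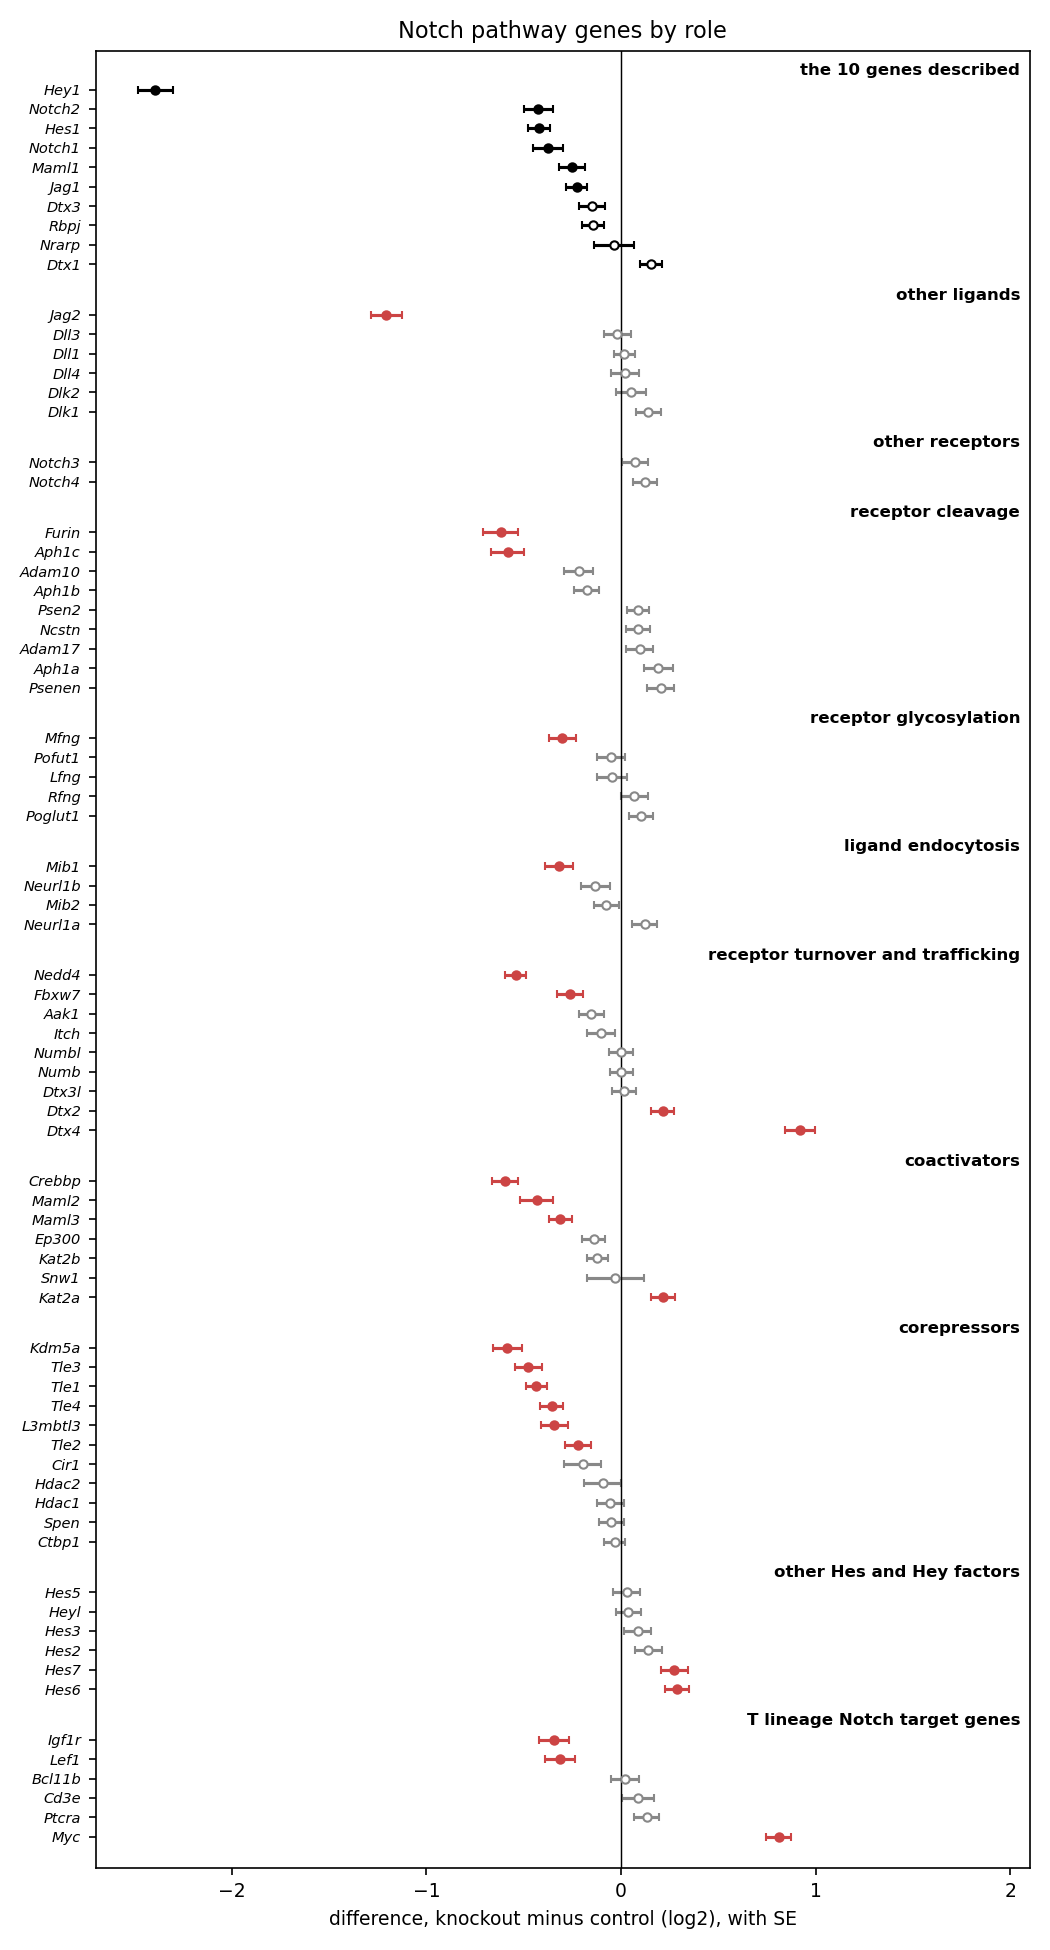
Log2 difference, knockout minus control, with its SE for the 10 genes described (black) and 65 further Notch pathway genes grouped by role. Filled points passed the adjusted threshold and open points did not. Jag2 at -1.21 and Dtx4 at 0.92 are the extremes outside the 10, and all 11 corepressors lie below 0.

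**Figure D4:**
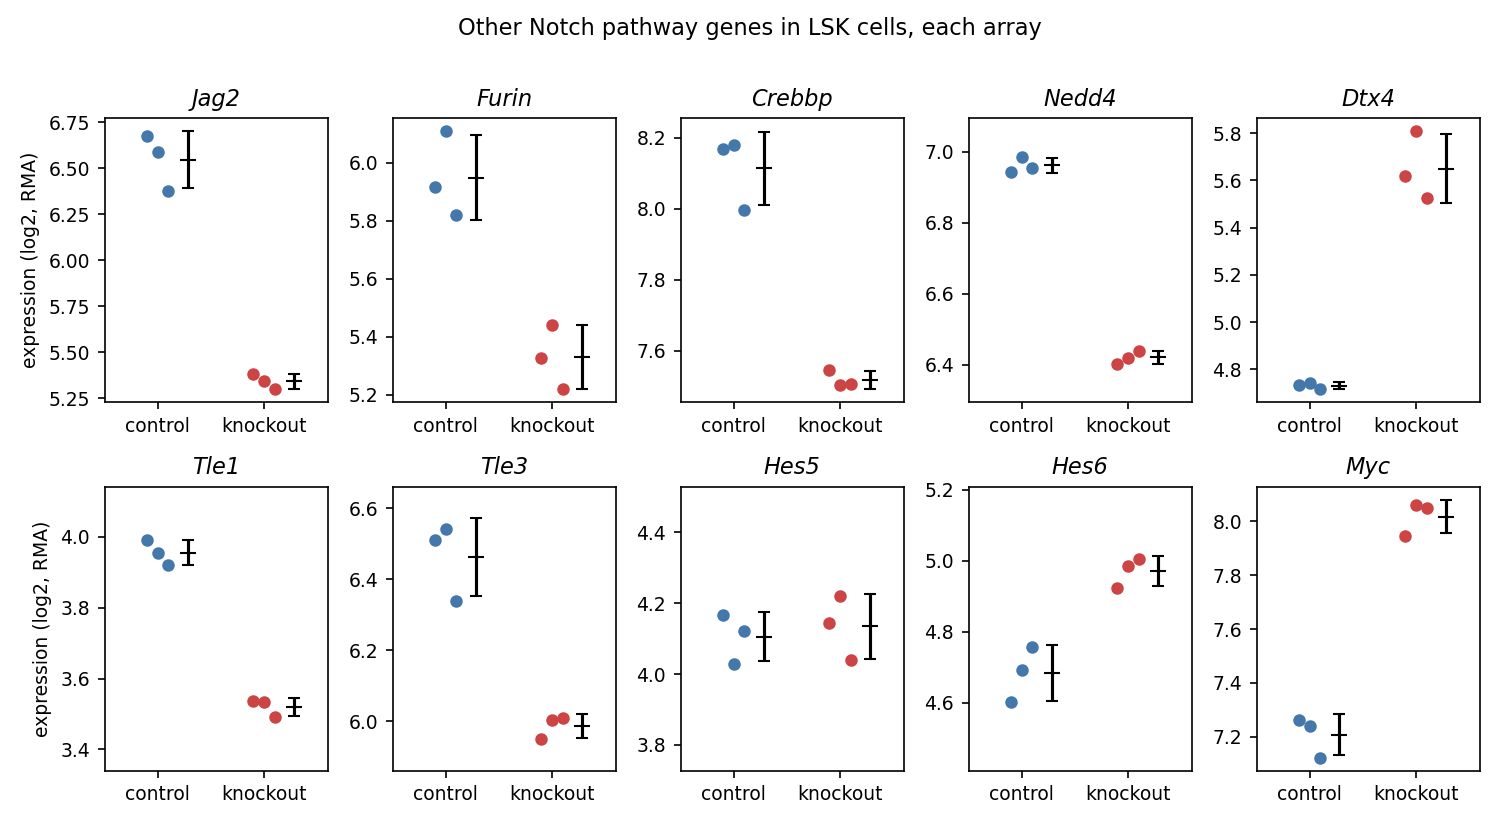
Log2 expression of 10 further Notch pathway genes in each array, control in blue and knockout in red, with the group mean and SD (n = 3) as bars. The vertical axes differ between genes. The groups are apart for 9 of the genes and overlap for Hes5.

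Since Hey1 also answers to BMP signalling, other BMP response genes were looked at. Of the 9 above the dim level, 2 fell and 2 rose, and the median difference was 0.09. Smad7, an inhibitor of the pathway, fell by 0.76 (adjusted p = 7.21e-05) and the decoy receptor gene Bambi by 0.48 (adjusted p = 0.00285). Id2 rose by 0.25 (adjusted p = 0.0172, lost at 0.21 without knockout replicate 3 and at 0.22 without control replicate 3). Id3 was at 0.18 (adjusted p = 0.0461), a call lost without any 1 array other than control replicate 3 (0.15 to 0.18) and under 4 other settings (0.14 to 0.18). Id1 (0.16), Id4 (0.12), Smad6 (-0.05), Smad9 (0.09) and Msx1 (0.04) did not pass. Without knockout replicate 3 the number of BMP response genes past the threshold was 2 in place of 4.

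Hey1, Jag1 and Notch4 are also active in vessel walls, so endothelial markers are given beside them. Of 9 tested, 3 fell (Emcn at -0.98, Eng at -0.47 and Tek at -0.37) and 0 rose in limma. The other 6 did not pass, with Pecam1 at 0.09, Esam at 0.00, Cdh5 at 0.10, Sox18 at 0.09, Plvap at 0.01 and Cldn5 at 0.27. Cldn5 passed with the replicate block and without control replicate 2 (0.365). The summed linear level of the 11 markers with a probe set was 231 to 236 in the knockout and 264 to 279 in control. The defining marker Cdh5 was near the dim level in every array, at 1.84 to 2.04, and Kdr and Sox17 were dim. T cell markers had 0 of 5 past the threshold in limma. The part of these cells in the Notch gene differences was not tested.

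The genes whose values ran most like those of Hey1 over the 6 arrays were sought by the root mean square difference of log2 values, each less its gene's own mean. The nearest was the matrix protein gene Thbs1 at 0.11, followed by the kinase gene Plk2 at 0.15, the costimulatory gene Cd86 at 0.15, the chemokine gene Cxcl2 at 0.18 and the inflammasome gene Nlrp3 at 0.22. Rora (0.28), the vascular growth factor gene Vegfa (0.28) and Tnfaip3 (0.31), an inhibitor of NF-kB signalling, completed the 8. All 8 were lower in the knockout by 1.81 to 2.27 on the log2 scale, and their Pearson correlations with Hey1 were 0.981 to 0.997. These correlations rest on 2 groups of 3 arrays and follow from the gap between the groups, so they are given as a description. Thbs1 was at 3.96, 3.84 and 3.65 in the knockout and at 6.19, 5.98 and 6.07 in control. Rora has several probe sets, and its difference was -0.92 as their mean. The measure counts the size of the gap between the groups, so only genes with a fall near that of Hey1 could be among the 8. The other 9 Notch genes, with differences of -0.43 to 0.15, were outside it in advance.

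**Figure D5:**
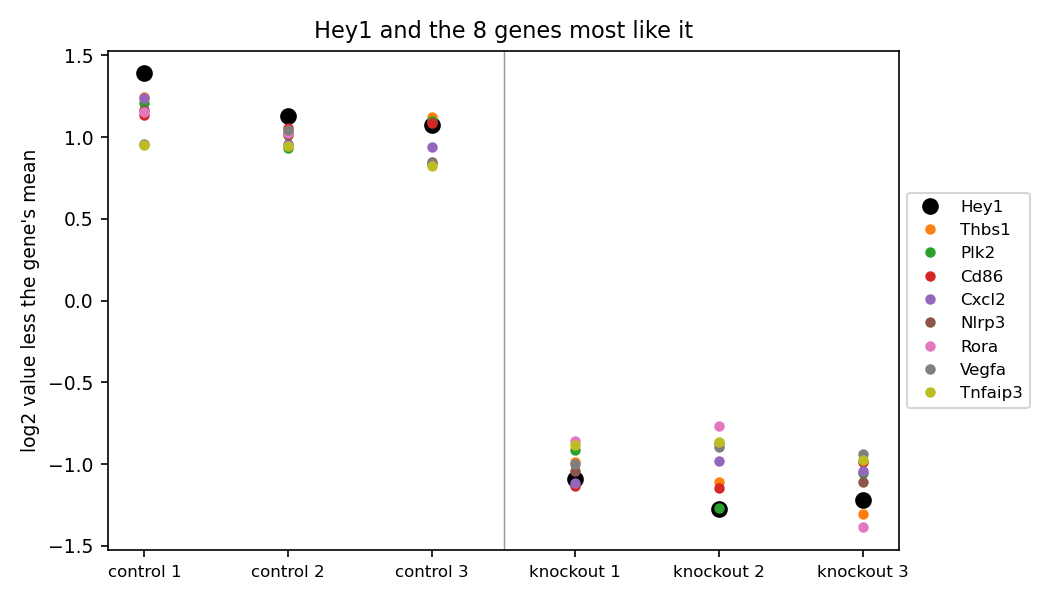
Log2 values of Hey1 (large black points) and the 8 genes nearest to it, each less its own mean over the 6 arrays, by array. All 9 genes lie above 0 in the controls and below 0 in the knockout arrays.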

How the data were processed

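Expression was deposited by the authors as log2 values, with a column for each of the 6 arrays. RMA is named in the submitters' processing notes, with no version, and no genome build is stated in the sources used here. RMA equalises intensity distributions over all probe sets, so a shift shared by most of them can be removed. The deposited array medians still ran from 1.90 to 1.95, and the genes tested kept a median difference of 0.07. The log base was read as 2 from the range, which reached 11.5. Of 65956 probe sets, 31085 were annotated to 1 gene by GEO's platform table (symbols updated by Entrez ID through RefSeq, GRCm38.p6), and the brightest was used per symbol. Genes with a mean under 1.92, the median of all values, were left out. The contrast was fitted in limma 3.58.1 under R 4.3.3 (eBayes on lmFit, two-sided, Benjamini-Hochberg over 19025 genes). Differences are knockout minus control, and their ± is the SE. The fit was run on simulated data with independent noise and far fewer changed genes than were called here. That run checks the code and gives no error rate for these data.

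The 10 genes and all lists were chosen with earlier results of these data known. Named were the 10 genes, genes of the lists, with SE and adjusted p for up to 4 of each list, and the 8 genes nearest to Hey1 by root mean square difference of mean-centred values. No batch is given in the labels. The number of arrays, 3 per group, limits the precision.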

Additional observations from a re-analysis of the deposited data

How the results depend on the processing

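The results were recomputed under 15 other settings: no filter on dim genes, a stricter one (mean of at least 4), arrays centred on their median, a second quantile normalization, the mean of all probe sets, array weights, the replicate block, a trended and robust prior, leaving out each of the 6 arrays, and, chosen after seeing the data, centring on the median of the genes tested. Hey1 (-2.46 to -2.30), Notch1, Notch2, Hes1 and Jag1 stayed past the threshold in every setting that kept them. The stricter filter removed 4 of the 10 genes. The number past the threshold among the 10 was 5 to 7 without 1 array, that among further Notch pathway genes 20 to 23, that among BMP response genes 2 to 3, and that of all genes 4141 to 5117. Without knockout replicate 3, 2324 genes were higher in place of 3633. Among the 82 further Notch pathway genes, BMP response genes and genes nearest to Hey1, 36 passed the threshold. Of these 36, 7 lost the call in at least 1 setting, and 0 of the 82 changed direction with a call. Cell type markers are not in these counts, and among them Cd48, Cd79b, Epor and Pdgfrb lost the call in at least 1 setting.

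The replicate numbers are shared by the groups, but they were not taken to pair the samples. Same-numbered arrays deviated from their group means together at r = 0.218, 0.333 and 0.0997, and knockout replicate 3 correlated best with control replicate 1 (0.129). With the replicate block, 4552 genes were higher and 2619 lower, 6 of the 10 genes and 28 of the 65 further Notch genes passed.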

Other observations

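Among the 10 Notch genes, the spread within groups was smallest for Jag1 in control (SD 0.01, n = 3) and largest for Nrarp in control (SD 0.22, n = 3). Control replicate 3 was the lowest control array for 7 of the 10 genes (Hey1, Notch1, Notch2, Rbpj, Dtx1, Dtx3 and Maml1) and the highest for Hes1, Jag1 and Nrarp. Knockout replicate 3 was the lowest knockout array for Notch1, Notch2, Jag1, Rbpj, Dtx1, Dtx3 and Maml1. Leaving out either array kept the direction of all genes of the 10 except Nrarp, which turned without control replicate 3.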
